A study of Mus musculus with 12 samples.

Results

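YY1 binding inside genes, away from the transcript starts of the GENCODE M21 annotation, was examined in Lin- bone marrow cells. These are the stem and progenitor cells left after cells with mature lineage markers are removed. YY1 ChIP-seq peaks of 4 libraries were merged wherever they shared at least 1 bp. A merged region was kept as an intragenic TSS-distal site when it lay on an autosome, held a peak in at least 1 replicate 1 and at least 1 replicate 2 library, was more than 3 kb from every GENCODE M21 transcript start (TSS) and overlapped the body of a protein-coding gene. These criteria left 609 sites out of 19768 merged regions, and out of 10332 autosomal regions with a peak in both replicate numbers. Because the sites were chosen on the presence of peaks, that presence is a description and carries no test.

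The libraries came from 3-month-old female mice of the strain 129Sv4/Jae x B6, 2 from wild-type (WT) mice and 2 from XistΔ/Δ mice. In XistΔ/Δ mice a floxed Xist gene, which makes the noncoding RNA that silences the inactive X chromosome, was deleted by Vav-iCre, a Cre transgene driven by sequences of the blood gene Vav1. The labels do not say whether WT mice carried Vav-iCre, nor whether a library was made from 1 mouse or from several. The remaining 8 samples of the series, of histone marks, were not analysed here.

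YY1, a transcription factor with zinc fingers, recognises a short core with the letters ATGG, binds many promoters, and can also occupy enhancers, where it is able to pair with itself and hold enhancer and promoter together. Many enhancers of blood genes lie in introns, often far from the start of the gene they act on. Factors of the ETS family such as PU.1, of the RUNX family and of the GATA family bind such elements in blood progenitors.

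Sequences of 12 intronic sites are given first, because they show the letters on which the sequence comparison turns. All are on the reference genome GRCm38 (mm10), read 5′ to 3′ on the stated strand, with the matching letters in capitals and 26 bases on either side. The first set holds AANATGGCG, the longest form of the YY1 core searched for. Ikzf1 and Acss2 were shown because they hold this form and were named below for their gene list or genotype. The other 6 were added after their values were seen, and are intronic sites of high mean width rank with a peak in all 4 libraries. Zfp407, which holds the form and ranks above them, is not shown.
Ikzf1, intron 4, chr11:11751178-11751238, minus strand: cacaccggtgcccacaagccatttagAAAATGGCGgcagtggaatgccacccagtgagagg
Acss2, intron 2, chr2:155538453-155538513, plus strand: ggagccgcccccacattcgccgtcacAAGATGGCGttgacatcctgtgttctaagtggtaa
Vgll4, intron 2, chr6:114893911-114893971, minus strand: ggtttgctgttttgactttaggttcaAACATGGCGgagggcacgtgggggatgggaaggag
Ccdc146, intron 1, chr5:21411651-21411711, minus strand: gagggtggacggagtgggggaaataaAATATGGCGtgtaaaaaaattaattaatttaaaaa
Ramp1, intron 1, chr1:91187760-91187820, minus strand: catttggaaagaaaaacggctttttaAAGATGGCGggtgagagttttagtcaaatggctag
Kif1bp, intron 7, chr10:62541424-62541484, minus strand: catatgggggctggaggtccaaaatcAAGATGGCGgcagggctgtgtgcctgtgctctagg
Agpat4, intron 2, chr17:12159379-12159439, minus strand: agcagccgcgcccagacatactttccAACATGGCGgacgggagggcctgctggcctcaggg
Akap12, intron 2, chr10:4334187-4334247, plus strand: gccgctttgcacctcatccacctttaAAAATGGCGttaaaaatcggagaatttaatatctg

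The second set, also chosen after the values were seen, holds the shorter AANATGGC in transcription factor genes of blood stem cells, or GAGGAAGT, letters that PU.1 prefers. PU.1 is the product of Spi1, so the Spi1 sequence holds letters of the gene's own product.
Runx1, intron 2, chr16:92715377-92715436, minus strand: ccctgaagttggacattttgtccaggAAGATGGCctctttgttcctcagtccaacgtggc
Erg, intron 3, chr16:95428039-95428098, minus strand: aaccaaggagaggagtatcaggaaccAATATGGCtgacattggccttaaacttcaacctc
Spi1, intron 1, chr2:91089224-91089283, plus strand: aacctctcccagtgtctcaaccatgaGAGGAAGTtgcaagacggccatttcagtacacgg
Notch1, intron 4, chr2:26483669-26483728, plus strand: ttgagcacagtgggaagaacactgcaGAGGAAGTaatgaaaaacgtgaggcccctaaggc

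The libraries differed in depth. Replicate 1 libraries held 24.9 and 23.1 M tags (aligned reads as the peak caller counts them) in WT and XistΔ/Δ, and replicate 2 libraries held 50.0 and 59.5 M. The lists gave 9553 and 15933 peaks in WT and 10075 and 18113 in XistΔ/Δ. At the promoters of 8 blood marker genes, 4 (Ptprc, Runx1, Myb and Spi1) had a YY1 peak in all 4 libraries, and Kit, Cd34, Vav1 and Gata2 had a peak in 1 to 3. Among 14 markers of other cells, 11 had no promoter peak in any library and Pecam1, an endothelial gene also made in blood cells, had a peak in all 4. A peak is not a measure of expression, so the label of the cells could be checked no further.

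Of the 609 sites, 216 held a peak in all 4 libraries, 309 in 3 and 84 in 2. A peak was present at 336 sites in WT replicate 1, 558 sites in WT replicate 2, 494 sites in XistΔ/Δ replicate 1 and 571 sites in XistΔ/Δ replicate 2. WT replicate 1 was therefore the library that most often lacked a peak, although its depth was slightly above that of XistΔ/Δ replicate 1. The most frequent combination, at 220 sites, was a peak in every library but WT replicate 1. At 84 sites only XistΔ/Δ replicate 1 lacked a peak.

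**Figure D1:**
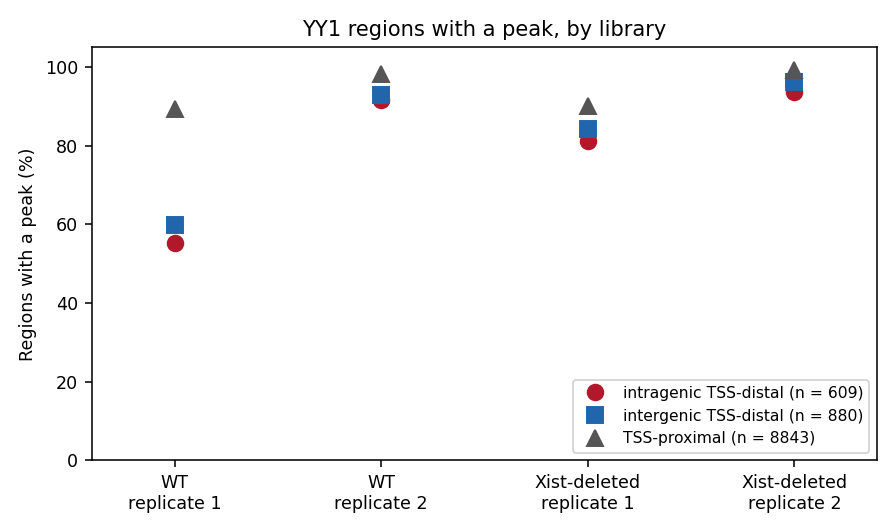
Percent of regions with a YY1 peak (vertical axis) in each of the 4 libraries (horizontal axis), for the 609 intragenic TSS-distal sites, 880 intergenic TSS-distal regions and 8843 TSS-proximal regions that had a peak in both replicate numbers. Each symbol is 1 library: the intragenic sites were at 55.2% in WT replicate 1 and 81.1% in XistΔ/Δ replicate 1, whereas TSS-proximal regions were at 89.3% and 90.1%.

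Within replicate 1, XistΔ/Δ had a peak at 1.47 times as many of the intragenic sites as WT. The corresponding ratio was 1.41 at 880 intergenic TSS-distal regions and 1.01 at 8843 regions within 3 kb of a TSS. Within replicate 2 the ratio was 1.02 at the intragenic sites, 1.03 at intergenic regions and 1.01 near a TSS. Replicate 2 libraries had a peak at 91.6% of the sites in WT and 93.8% in XistΔ/Δ, which leaves little room for a difference there. A further 2205 intragenic TSS-distal regions had a peak in replicate 2 libraries alone, and so were no sites. Of these, 1225 had one in WT and 1754 in XistΔ/Δ, a ratio of 1.43. The XistΔ/Δ library of that pair was the deeper one, with 59.5 against 50.0 M tags. Whether depth accounts for the ratio was not tested.

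Where only 1 of the replicate 1 libraries had a peak, that peak was often of the narrowest width, in either direction. A peak was present in XistΔ/Δ replicate 1 and absent from WT replicate 1 at 273 sites, and at 181 of them the peak had the width of 501 bp that was most frequent in every list. The opposite held at 115 sites, with 75 peaks of 501 bp. Of all peaks at the sites, 46.9% in WT replicate 1 and 51.7% in XistΔ/Δ replicate 1 had this width. In replicate 2, 51 sites had a peak in XistΔ/Δ alone and 38 in WT alone.

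As a share of all autosomal peaks of a library, the sites took up 3.67% in WT replicate 1 (95% Wilson interval 3.31 to 4.07) and 3.69% in WT replicate 2 (3.41 to 4.00). For XistΔ/Δ they took up 5.08% in replicate 1 (4.66 to 5.53) and 3.28% in replicate 2 (3.02 to 3.55). The intervals cover counting error only. Shares averaged 3.68% ± 0.0145 (SD, n = 2) over the WT libraries and 4.18% ± 1.27 (SD, n = 2) over those of XistΔ/Δ, and the difference of 0.50 percentage points was smaller than the SD of the XistΔ/Δ libraries. No test is given, because the share rests on the peaks that chose the sites. The difference between genotypes was 1.41 percentage points in replicate 1 and -0.42 in replicate 2, so its direction was not shared by the pairs, and without XistΔ/Δ replicate 1 it was -1.09.

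Peaks at the sites were narrow. Median widths were 627 and 798 bp in WT replicates 1 and 2 and 501 and 883 bp in XistΔ/Δ replicates 1 and 2, against 894, 926, 778 and 892 bp over all autosomal peaks of the same libraries. The difference of -20.5 bp between the genotype means was smaller than the SD of the libraries, 121 bp in WT and 270 bp in XistΔ/Δ (n = 2 each). No test is given, because the widths are those of the peaks that chose the sites. The difference was -126 bp within replicate 1 and 85.0 bp within replicate 2, 152.5 bp without XistΔ/Δ replicate 1 and 64.0 bp without WT replicate 2. The merged sites themselves ranged from 502 to 3642 bp with a median of 930 bp.

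Most sites lay in introns, but the share of TSS-distal gene bases that are intronic was not computed, so no preference for introns can be read from this. On the longest protein-coding transcript of the host gene, the centre of 541 sites (88.8%) fell in an intron, of 22 in a coding exon and of 28 in an untranslated exon, and 18 fell outside that transcript. Of the intronic sites, 191 (35.3%) were in intron 1 and 111 in intron 2. Intron 1 makes up 25% of all intron bases of autosomal protein-coding genes that lie over 3 kb from a TSS. The sites were spread along their genes, with a median position at 47.7% of the gene length from its start, and 24.5% of them lay within the leading 25% of the gene.

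**Figure D2:**
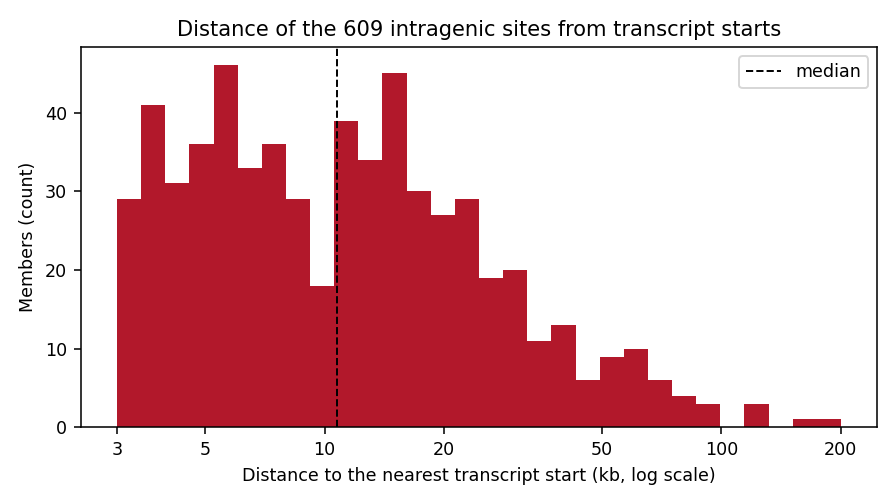
Number of intragenic sites (vertical axis) by distance to the nearest GENCODE M21 transcript start of any gene (horizontal axis, kb, log scale, beginning at the 3 kb limit). The dashed line marks the median of 10.8 kb, and 34 of the 609 sites lie beyond 50 kb.

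The median distance to the nearest TSS was 10764 bp, the middle 50% of sites lay between 5450 and 19455 bp, and the farthest site was 183006 bp away. Intergenic TSS-distal regions had a median of 12302 bp. Within 10 kb of a TSS lay 47.6% of the intragenic and 42.6% of the intergenic regions. The 3 sites just inside the limit were in Kcnn4 (3066 bp), Fyb (3075 bp) and Cbr3 (3077 bp), with peaks of 501 to 763 bp, 916 to 2514 bp and 501 to 671 bp in the libraries that had one. The 3 regions just outside were in Il4ra (2992 bp), Gcnt2 (2985 bp) and Trim8 (2931 bp), with peaks of 501 to 756 bp, 501 to 784 bp and 634 to 1042 bp.

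Starts in a second annotation were also looked at. Of the 609 sites, 64 (10.5%) lay within 3 kb of a RefSeq transcript start, against 143 (16.3%) of the intergenic regions. Sites named or printed here that lay so close to a RefSeq start include those in Cc2d2b (84 bp), Pura (121 bp) and Ramp1 (1032 bp). Others were in Rubcnl (1608 bp), Ccl28 (2900 bp) and Ank1 (2986 bp). Among the 545 sites beyond 3 kb of both annotations a peak was present at 300 in WT replicate 1 and at 440 in XistΔ/Δ replicate 1, and at 499 and 510 in the replicate 2 libraries.

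Sequence at the sites was compared with that of the DNA beside them and of other YY1 regions. In the 500 bp around the centre, 308 of 609 sites (50.6%, 95% Wilson interval 46.6 to 54.5) held AANATGG on either strand, compared with 33.3% and 30.2% of windows of the same length 2 kb to the left and right. Adding a C (AANATGGC) gave 141 sites (23.2%) against 12.3% and 7.9% in the flanks. The 9 letters AANATGGCG, printed above in Ikzf1 and Vgll4, were found at 24 sites (3.9%) against 1.0% and 0.7%. The shorter forms include all matches of the longer ones, and no test was made because regions are not replicates.

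The same letters were less frequent or more frequent elsewhere depending on their length. AANATGG was held by 43.3% of intergenic TSS-distal regions, 43.0% of 2205 intragenic TSS-distal regions that had a peak in replicate 2 libraries alone, 25.9% of TSS-proximal regions and 32.4% of all 19268 autosomal merged regions. AANATGGCG was held by 5.0%, 1.6%, 7.6% and 4.6% of them. The long form, which contains a CpG, was thus found at a larger share of TSS-proximal regions than of intragenic sites, and the short form at a smaller share. Among the intragenic sites the long form was at 15 of 216 with a peak in all 4 libraries (6.9%), at 1.9% of those with a peak in 3 and at 3.6% of those with a peak in 2.

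**Figure D3:**
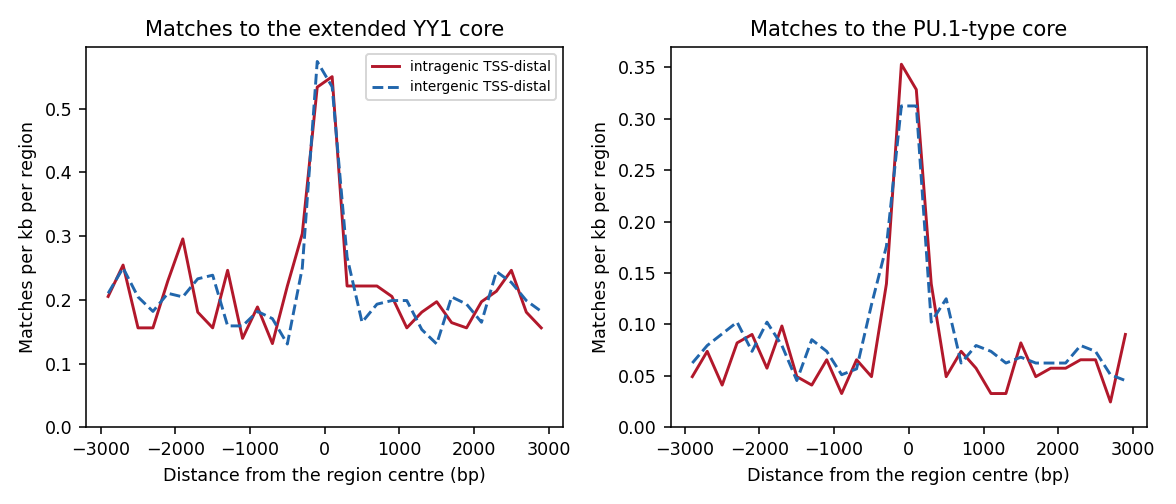
Matches per kb per region (vertical axes) in 200 bp bins by distance from the region centre (horizontal axes, bp) for AANATGGC (left, extended YY1 core) and GAGGAAGT (right, PU.1-type core), at intragenic (solid) and intergenic (dashed) TSS-distal regions. At intragenic sites the bins on either side of the centre averaged 0.542 and 0.341 matches per kb, against 0.200 and 0.0640 beyond 2 kb.

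Matches were concentrated at the middle of the sites. In the 200 bp on either side of the centre AANATGGC occurred 0.542 times per kb, 2.72 times its mean frequency beyond 2 kb, where single bins ranged from 0.156 to 0.255. Over the same stretch GAGGAAGT occurred 0.341 times per kb, 5.32 times its frequency beyond 2 kb. At intergenic regions the ratios were 2.67 and 4.33.

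GAGGAAGT was held by 88 intragenic sites (14.4%, interval 11.9 to 17.5), against 3.4% and 3.0% of the flanking windows, 13.5% of intergenic regions, 16.7% of replicate 2 only regions and 4.4% of TSS-proximal regions. These letters are those PU.1, a master factor of myeloid and lymphoid cells, prefers, although other ETS factors also recognise part of them. They occurred at 12.7% of sites with AANATGG and at 16.3% of sites without it. Both were found at 39 sites and neither at 252.

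Other blood factor letters stood out less. TGTGGT, the RUNX core, was at 42.9% of sites and at 34.0% and 38.6% of flanking windows. The letters AGATAA, which factors of the GATA family recognise, were at 25.6% against 23.3% and 24.3%. The AP-1 letters TGANTCA were at 15.6% against 13.0% and 15.6%. GGGCGG, the GC box typical of promoters, was at 18.4% of sites against 7.6% and 8.9% of the flanks and 72.1% of TSS-proximal regions.

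In median base composition the sites were closer to distal DNA than to regions near a TSS, but CpG-rich windows were more frequent than in the flanks. Their median GC content was 48.4%, against 45.8% and 46.0% in the flanks, 49.0% at intergenic regions and 63.6% near a TSS. They held a median of 8 CpG in 500 bp, against 5 in either flank, 9 at intergenic regions and 40 near a TSS. At least 20 CpG were held by 43 sites (7.1%), against 1.0% and 0.2% of the flanks, 18.5% of intergenic regions and 82.1% of TSS-proximal ones. Of these 43 CpG-rich sites, 30 had a GC box, 12 had AANATGG, and 7 lay within 3 kb of a RefSeq start. Repeats, as marked in the reference, covered 14.5% of bases at the sites and 22.4% and 23.8% in the flanks. They made up at least 50% of the 500 bp at 16 sites (2.6%), against 10.3% and 12.5% of the flanks. Among the 16 were the printed sites in Acss2 (75.4%) and Ccdc146 (66.8%), where lower case does not mark repeats. Reads that map to several places were removed by the authors, which lowers coverage of repeats.

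The 609 sites lay in 524 host genes, which is 2.52% of 20807 autosomal protein-coding genes. A host held 1 site in 442 cases, 2 in 62 and 3 or more in 20. Host genes were long, with a median of 99.4 kb against 17.6 kb for all genes, and 383 of the 524 were among the genes over 45.6 kb, of which 7.36% were hosts. Promoters of host genes often carried YY1 too. A region with a peak in both replicate numbers was found within 3 kb of a start of 353 host genes (67.4%), against 43.4% of all genes. Among genes over 45.6 kb the shares were 71.8% of hosts and 49.7% of all genes.

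Arid1b, which encodes a DNA-binding subunit of the BAF chromatin remodelling complex, held the most sites, 5, on chromosome 17. Of them, 4 lay in intron 4 and 1 in intron 15, and 4 of the 5 had a peak in every library. The highest ranked of the 5 by width, at 5327443 to 5328594, had peaks of 963 and 886 bp in the WT pair against 882 and 1149 bp in XistΔ/Δ. The next 6 genes, with 4 sites each, were Fam49a, Maml3, Mroh2a, Pik3ap1, Zfp981 and Gm20388. Maml3 is a coactivator of Notch signalling and Pik3ap1 an adaptor that links receptors of B cells to PI3-kinase. Gm20388 is a gene model of 4435 kb that spans many other genes, and 3 of its 4 sites were also in Gse1, Galns or Crispld2.

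Lists of 20 genes each were used to look at blood loci. Of the stem and progenitor transcription factors 4 of 20 were hosts (Runx1, Erg, Ikzf1 and Zbtb16), with 6 sites between them. The shares elsewhere were 2 of 20 erythroid and megakaryocyte genes (Ank1 and Epb41), 1 of 20 myeloid genes (Spi1), 1 of 20 lymphoid genes (Notch1), 2 of 20 surface and signalling genes (Ptprc and Vav1), 1 of 20 genes of other cell types (Runx2) and 0 of 20 genes of YY1, Polycomb, INO80 and cohesin, whose 20 promoters all had a YY1 region. Over all autosomal protein-coding genes 2.52% were hosts, and 7.36% of those over 45.6 kb. Gene length differed between lists, with a median of 71.1 kb in the transcription factor list and 7.01 kb in the myeloid list. The 4 hosts of the transcription factor list were long, from 87.9 kb (Ikzf1) to 227 kb (Erg). No test was made, and with 20 genes per list the counts are a description.

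In what follows, paired widths are those of replicate 1 and then replicate 2. Runx1 (ENSMUSG00000022952.17), the factor needed for blood stem cells to arise, held 3 sites, all in intron 2 on chromosome 16. The one at 92714742 to 92716143 had peaks of 652 and 1325 bp in WT replicates 1 and 2 and 1190 and 1402 bp in XistΔ/Δ replicates 1 and 2. The one at 92800692 to 92802176 had no peak in WT replicate 1, 1403 bp in WT replicate 2, and 632 and 1465 bp in XistΔ/Δ. The site at 92726593 to 92727379 had 501 and 787 bp in WT, none in XistΔ/Δ replicate 1 and 626 bp in XistΔ/Δ replicate 2. The deep libraries of both genotypes thus had a peak at all 3 sites, and each of the shallow ones lacked 1. All 3 held AANATGG, and the promoter of Runx1 had a peak in all 4 libraries.

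**Figure D4:**
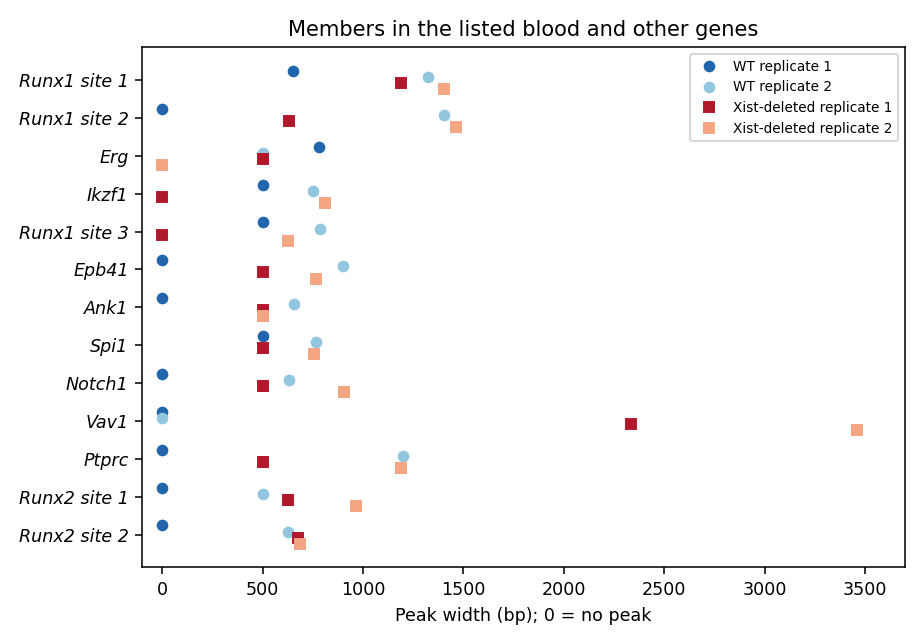
Width of the widest YY1 peak in each library (horizontal axis, bp, with 0 for no peak) at the sites shown for each gene list (vertical axis). Circles are WT and squares XistΔ/Δ libraries: in the Vav1 row the XistΔ/Δ libraries stand at 2333 and 3461 bp and the WT libraries at 0, and in most other rows the library at 0 is WT replicate 1.

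Erg, an ETS factor that maintains blood stem cells, had a site in intron 3 (chr16:95427608-95428573) with peaks of 781 and 501 bp in the WT pair against 501 bp and none in XistΔ/Δ. Ikzf1, the Ikaros factor of lymphoid cells, had 501 and 751 bp in the WT pair against none and 812 bp in XistΔ/Δ. Zbtb16, the sixth site of its list by rank and named after its values were seen, had 501 and 626 bp in the WT pair against none and 761 bp in XistΔ/Δ. None of these 3 had a peak in every library.

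Spi1, the gene of PU.1, had a site in intron 1 (chr2:91088892-91089721) with peaks of 501 and 765 bp in the WT pair against 501 and 754 bp in XistΔ/Δ, and the ranges of the genotypes overlapped. Ptprc, which encodes the pan-leukocyte antigen CD45, had a site in intron 2 (chr1:138136056-138137253) with no peak and 1198 bp in the WT pair against 501 and 1188 bp in XistΔ/Δ. Notch1, the receptor that commits progenitors to the T lineage, had no peak and 633 bp in the WT pair against 501 and 903 bp in XistΔ/Δ. Where a library had no peak at these 3 sites, it was WT replicate 1.

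The 2 host genes of the erythroid list encode proteins of the red cell membrane skeleton. Epb41 had no peak and 899 bp in the WT pair against 501 and 766 bp in XistΔ/Δ in intron 10, and Ank1 had no peak and 657 bp in the WT pair against 501 and 501 bp in XistΔ/Δ in intron 1. Runx2, a bone factor counted among genes of other cells, had 2 sites, with no peak in WT replicate 1 at either, 501 and 628 bp in WT replicate 2, and 628 to 965 bp in XistΔ/Δ. At each of these sites both XistΔ/Δ widths were above both WT widths.

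Sites were also ranked by width, since the lists give no tag count per peak. For each library, the widest peak of a region was placed as a percentile among regions called in 2 or more libraries, with 0 where there was no peak. The mean percentile over the 4 libraries had a median of 31.2 over the 609 sites, ran from 11.5 to 92.9, and was 50 or above at 115. Among regions with a peak in WT replicate 2, the median percentile was 35.4 at intragenic sites, 41.7 at intergenic regions and 66.5 near a TSS.

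The highest mean percentile, 92.9, belonged to a site in intron 1 of Zfp992 (chr4:146454914-146458266), a KRAB-type zinc finger gene, with peaks of 2106 and 2103 bp in the WT pair against 1849 and 2165 bp in XistΔ/Δ. Next came intron 2 of Igf1r, the receptor of insulin-like growth factor 1 (chr7:68128606-68130599), with 1285 and 1994 bp in the WT pair against 1424 and 1815 bp in XistΔ/Δ. The adaptor gene Fyb, used in T cell receptor signalling, had 916 and 2129 bp in the WT pair against 1054 and 2514 bp in XistΔ/Δ at chr15:6622669-6625273. Klf13, a zinc-finger factor of lymphoid and erythroid cells, had 939 and 2176 bp in the WT pair against 945 and 2872 bp in XistΔ/Δ in intron 1 (chr7:63910538-63913409). At these 4 sites the ranges of the genotypes overlapped, and at Igf1r, Fyb and Klf13 both replicate 2 widths were above both replicate 1 widths.

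The other 6 of the 10 sites of highest mean percentile were in Pura, Zfp407, Adora3, Tmem44, Sgms1 and Elmsan1, with mean percentiles from 78.1 to 82.6. The Pura site lay 121 bp from a RefSeq start and held 51 CpG, so the second annotation places it at a promoter. The Zfp407 site, 81417 bp from the nearest start, held AANATGGCG. Tmem44 had 1217 and 2416 bp in WT against 822 and 1476 bp in XistΔ/Δ, lower within both replicate numbers.

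A site was called KO-specific when a peak was present in the XistΔ/Δ libraries of both replicate numbers and absent from WT, and WT-specific in the opposite case. The intragenic sites included 36 KO-specific ones (5.91%), against 1.62% of all 10332 autosomal regions with a peak in both replicate numbers and 5.31% of the 1489 TSS-distal ones among them, which include these sites. They included 19 WT-specific ones (3.12%), against 0.61% of all such regions and 2.15% of the TSS-distal ones. The 880 intergenic TSS-distal regions, which share no region with the sites, had 4.89% KO-specific (95% Wilson interval 3.65 to 6.52) and 1.48% WT-specific (0.87 to 2.51) ones. The intervals at the sites were 4.30 to 8.08% and 2.01 to 4.82%. All these intervals cover counting error only, since every call comes from the same 4 libraries, and no test was made. When peaks of 501 bp were left out, the same criteria gave 298 sites, of which 14 were KO-specific (4.70%) and 4 WT-specific (1.34%). TSS-distal regions under the same setting were at 3.44% and 1.40%.

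The KO-specific site of highest mean percentile was in intron 1 of Vav1 (chr17:57288895-57292355), which encodes a guanine nucleotide exchange factor of blood cells. It had no peak in either WT library and peaks of 2333 and 3461 bp in XistΔ/Δ, at percentiles 98.8 and 98.5. Vav-iCre carries Vav1 sequences, and extra copies of them in the transgene cannot be told apart from binding at the endogenous gene in these lists. The next KO-specific sites were far narrower. Myo1f, a myosin of immune cells, had 501 and 1388 bp, Rubcnl 815 and 788 bp, Ccl28 1372 and 501 bp, and Stk10, a lymphocyte kinase, 501 and 1066 bp in XistΔ/Δ.

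Among WT-specific sites the highest mean percentile was in intron 4 of Ptpn3, a tyrosine phosphatase gene (chr4:57262554-57263717), with 789 and 1164 bp in WT. Vps37b had 501 and 1295 bp, Sp9 501 and 1095 bp, Acss2, an acetyl-CoA synthetase gene whose sequence is printed above, 643 and 664 bp, and Kcng2 501 and 769 bp. At Vps37b, Sp9 and Kcng2 the WT replicate 1 peak had 501 bp, the narrowest width at the sites. At Ptpn3 and Acss2 the WT replicate 1 peaks were wider, at percentiles 62.3 and 52.9.

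By width rank, 205 sites (33.7%) ranked higher in the XistΔ/Δ library of both replicate pairs and 129 (21.2%) ranked lower. Over all 10332 regions the shares were 25.9% and 25.3%, and over the TSS-distal ones 32.8% and 20.7%. The shares at the sites were thus near those of TSS-distal regions. Of the 205 higher sites 156 had no peak in WT replicate 1, and 63 of the 129 lower ones had none in XistΔ/Δ replicate 1. Such counts are not given for other regions. Among the 216 sites with a peak in all 4 libraries 49 (22.7%) were higher and 64 (29.6%) lower, the reverse order, and when sites were ranked by order in the list instead of by width the counts were 69 and 46. Over all 609 sites the list order gave 239 higher (39.2%) and 114 lower (18.7%), the same direction as width. Over the TSS-distal regions it gave 36.8% and 18.1%. The balance thus turned with the ranking among sites with a peak in all 4 libraries. A pair of 501 bp peaks in the replicate 1 libraries, found at 46 sites, counts as -1.43 percentile points in XistΔ/Δ through ties alone, and 22 of these sites were among the lower ones.

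**Figure D5:**
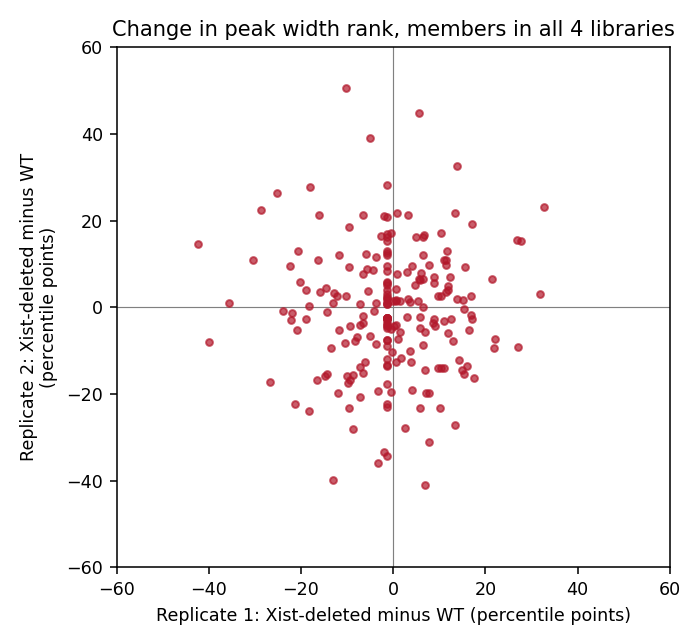
Difference in width percentile, XistΔ/Δ minus WT, within replicate 1 (horizontal axis) and within replicate 2 (vertical axis), for the 216 intragenic sites with a peak in all 4 libraries. Each point is 1 site, all 4 quadrants are filled, and the column of points at -1.43 holds sites with peaks of 501 bp in both replicate 1 libraries.

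Sites with a peak in every library were ordered by the smaller of their replicate 1 and replicate 2 differences. By that order the largest shared difference upward was in intron 1 of Hivep2, a large zinc-finger gene (chr10:13982578-13984200), with 628 and 991 bp in WT against 1087 and 1422 bp in XistΔ/Δ, or 32.7 and 23.2 percentile points. Fam117a, Maff, a small Maf factor, 1700011L22Rik and Agpat4, whose sequence is printed above, followed, with differences of 13.9 to 32.7 points. By the same order the largest shared difference downward was in intron 1 of Stat3, the transcription factor of cytokine signalling (chr11:100931173-100932224), with 786 and 1052 bp in WT against 501 and 781 bp, or -21.4 and -22.3 points. Cc2d2b, Cabcoco1, Irs1 and Nfix followed. Irs1, an adaptor of the insulin receptor, had 1452 and 1469 bp in WT against 883 and 1144 bp, and Nfix, a factor that supports blood stem cells, 1428 and 1591 bp against 894 and 1216 bp. These sites were picked for their differences, so the values are a description.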

How the data were processed

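YY1 ChIP-seq peak lists of 4 libraries (2 WT, 2 XistΔ/Δ) were analysed. Per the methods of the study and the submitters' processing notes, chromatin was cut with micrococcal nuclease and reads were adapter-trimmed (Trim Galore), aligned to mm10 with Bowtie2 2.3.5.1, filtered for mapping quality and duplicates with SAMtools 1.10 and Picard 2.0.1, and peaks were called by the authors with HOMER 4.9.1. Per the file headers, calling was done library by library without an input library, at an FDR of 0.001 and 4 fold over local background. The deposited score is 1 for every peak, so width in bp, computed from the deposited start and end, served for ranks. Within each genotype the deeper library had more peaks, and without input, open chromatin and copy number also raise tag density.

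Regions were merged and annotated with GENCODE M21 and RefSeq on GRCm38 with Python and pysam. Scripts were tested on simulated data. Host position was taken at the region centre. Differences between genotypes were set beside the spread of the libraries, with no test. That spread is only the one between these libraries, since the labels do not say that they are separate animals. A replicate number is shared by 1 WT and 1 XistΔ/Δ library and by a number of unstated meaning in the headers, so values within replicate numbers are given. In 3 of the 4 libraries the tag directory named in the header carries a replicate number other than the label's. The labels were followed here, and the selection of sites and all values within replicate numbers rest on them.

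Sites named were the 10 of highest mean percentile, up to 5 per gene list and up to 5 specific to either genotype by the same rank, the genes with most sites (7, because of ties), the 5 largest shared rises and 5 largest shared falls with a peak in all 4 libraries, and 3 on either side of the 3 kb limit. The sites, lists and motifs were chosen with earlier results of these data known, and motifs other than YY1 were added after the sequences were seen.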

Additional observations from a re-analysis of the deposited data

How the results depend on the processing

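The number of sites was 298 with only peaks wider than the most frequent width, 319 beyond 10 kb from a TSS, 216 with a peak in all 4 libraries and 368 with lists of equal length, and from 336 to 573 when a library was left out (336 without XistΔ/Δ replicate 1). The difference in the share of peaks was -0.15 percentage points with a peak required in all 4 libraries and ran from -1.09 to 1.10 with a library left out. The difference in median width ran from -119.5 to 152.5 bp. With the replicate number as a block (replicate block), the differences of 0.50 percentage points in share and -20.5 bp in median width are the same by construction. That setting is therefore no check of them. No test is given for either. The same numbers mark no stated pairing.

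KO-specific sites were 0% where a peak was required in all 4 libraries, by construction, and from 0 to 44.7% with a library left out. The 44.7% was without WT replicate 2, where TSS-distal regions were at 41.6%. WT-specific sites were 0%, 1.34% with only wider peaks, 5.71% with lists of equal length and from 0 to 19% with a library left out. TSS-distal regions were at 1.40% with only wider peaks and 4.80% with lists of equal length. They were at 17.0% without XistΔ/Δ replicate 2, where the sites were at 19%. A value of 0 without a library of the same genotype also follows from the definition. Higher-ranked sites were 22.7% with a peak in all 4 libraries and 39.2% by list order, and lower-ranked sites 29.6% with a peak in all 4 libraries. Ranks were not computed with a library left out, because a replicate number then has no pair. AANATGG was at 54.9% of sites beyond 10 kb, at 67.3% in windows of 1000 bp, 28.7% in windows of 200 bp and 67% in whole regions, where TSS-distal regions in general were at 49.9%, 63.2%, 27.1% and 64.9%. Leaving out sites near RefSeq starts, chosen after seeing the data, left 33 KO-specific, 17 WT-specific, 183 higher-ranked and 114 lower-ranked sites. These were 6.06%, 3.12%, 33.6% and 20.9% of the sites left. TSS-distal regions filtered in the same way were at 5.77%, 2.26%, 33.6% and 21.1%. The limits are the 2 libraries per genotype, the unequal depth, the lack of input and of tag counts per peak, and the calling threshold, below which a site at low depth cannot be told from an unbound one.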

Other observations

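Some sites lay in stretches crowded with peaks. A site had a median of 4 merged regions within 50 kb to either side, itself included, but 37 sites had 10 or more. The densest stretch, on chromosome 1, held 8 sites in Mroh2a, Trpm8 and Hjurp, the gene of the centromere histone chaperone, with 27 to 38 merged regions around each. None of these 8 had a peak in all 4 libraries. A peak was shared by WT replicate 2 and XistΔ/Δ replicate 1 alone at 4 of them and by WT replicate 1 and XistΔ/Δ replicate 2 alone at 1. Such crossed pairs, which follow neither genotype nor replicate number, were found at 29 of the 609 sites (4.76%), and 5 of the 29 were in Mroh2a or Trpm8. The rest of the 84 sites with a peak in 2 libraries were the 36 KO-specific and 19 WT-specific ones. No share of crossed pairs over all regions is given.

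A second crowded stretch, on chromosome 13, held 3 sites in Ccl28, a chemokine gene, with 23 to 26 merged regions around each, and 2 of the 3 were KO-specific. The neighbouring site in Tmem267, with 18 merged regions around it, was WT-specific. On chromosome 4, Zfp981 and Zfp992 held 6 sites with 10 to 12 merged regions around each, the site of highest mean percentile among them. Copy number of these stretches was not tested. Without the 37 sites, 572 were left, with 32 KO-specific (5.59%), 16 WT-specific (2.80%), 188 higher-ranked (32.9%) and 122 lower-ranked (21.3%) ones, and 51.6% held AANATGG. A peak was then present at 319 and 526 sites in WT replicates 1 and 2 and at 462 and 543 in XistΔ/Δ replicates 1 and 2. Shares over other regions outside crowded stretches are not given, so these counts have no matched background.

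Sites were unevenly spread over chromosomes, from 0.147 per Mb on chromosome 6 to 0.488 on chromosome 19 and 0.467 on chromosome 11. Per 100 protein-coding genes they ran from 1.43 on chromosome 7 to 4.82 on chromosome 12. Of all sites, 78 (12.8%) lay within 10 kb of another.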
